A study of Mus musculus with 24 samples.

Results

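The vascular basement membrane is the sheet of extracellular matrix on which brain endothelial cells sit and which they share with pericytes and astrocyte endfeet. Its scaffold is a network of collagen IV, built from heterotrimers of the alpha1 and alpha2 chains, and a network of laminins, each a trimer of an alpha, a beta and a gamma chain. Nidogens and the heparan sulfate proteoglycan perlecan link the networks. In brain vessels the endothelial laminins contain the alpha4 or the alpha5 chain together with gamma1.

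The 10 genes described here encode these components and were chosen by symbol: Col4a1 and Col4a2 (collagen IV), Lama4, Lama5, Lamb1, Lamb2 and Lamc1 (laminin chains), Nid1 and Nid2 (nidogens) and Hspg2 (perlecan). They are 10 of the 53465 genes listed in the count table, and all 10 were among the 15493 that passed the filter on low counts, which asks for 5 or more normalized reads in at least 6 mice of either genotype. The cells were CD31-sorted brain endothelial cells from C57BL/6J mice kept in light-dark cycles. The 12 controls carried floxed Bmal1 alleles (Bmal1fl/fl) without Cre, and the 12 mutants were Bmal1fl/fl; Tie2cre, in which Cre driven by the Tie2 promoter acts in endothelial cells and also in blood cells derived from Tie2-expressing progenitors. Each library came from 1 mouse, and each genotype had 2 mice per time point, at 6 time points from ZT2 to ZT22 (zeitgeber time, hours after lights on). The paper used mice of both sexes for its expression data, and sex was not part of any fit. Animal age is not given in the sources used here.

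The libraries held 6136404 to 6648311 normalized reads, and the 10 genes together took 0.325 to 0.928% of them. Arntl, the gene symbol of Bmal1, was counted over the whole gene and not over the floxed exon, so its count does not check the deletion: it ranged from 1 to 468 reads in controls (median 166.5) and from 81 to 354 in mutants (median 242.5). All 14 endothelial markers were detected in every library. The libraries of ZT6 and ZT18 stood apart: summed microglial markers were 1218 to 2015 reads in these 8 and 10960 to 29123 in the other 16, and mitochondrial transcripts made up 2.68 to 3.90% and 5.78 to 17.4% of reads. Control ZT22 replicate 2 also stood apart, with 67482 choroid plexus marker reads against 1907 to 19299 in the other 23 libraries. The numbers in the sample labels fall into 3 series, of which the first holds both mutant ZT14 libraries and 1 control ZT2 library and another holds all 8 libraries of ZT6 and ZT18. What the series stand for is not given in the sources used here. Each library carries an i5 index (a library barcode), i5_a or i5_b. Index i5_a is on all libraries of ZT6 and ZT18 and on the controls of ZT2 and ZT10, and i5_b is on all others. At ZT2 and ZT10 index and genotype therefore cannot be told apart. In sorted bulk RNA, fewer cells of a type and less RNA per cell cannot be told apart.

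Col4a1 and Col4a2 lie head to head on mouse chromosome 8 of GRCm38, Col4a1 at chr8:11198423-11312826 on the minus strand and Col4a2 at chr8:11312805-11449287 on the plus strand, so that their annotated first exons share 22 bases. The shared start is shown because both genes are read outward from it; it is the plus strand of chr8:11312801-11312830, and capitals mark the overlap.
Col4a1 and Col4a2 start: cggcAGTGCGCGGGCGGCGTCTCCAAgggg

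Promoter windows (250 bases before to 50 after the start, RefSeq, GRCm38.p6) were found for 7 of the 10 genes: Col4a1, Col4a2, Lama5, Lamb1, Lamb2, Nid1 and Hspg2. The E-box CACGTG, the sequence bound by BMAL1 with CLOCK, was in 0 of the 7 windows on either strand, against 7.15% of 32851 mouse promoters, and the related CACGTT, read as AACGTG on the other strand, was in 0 of 7, against 4.68%. The GC box GGGCGG, or its complement read as CCGCCC, was in 6 of 7, against 35.7%, and CCAAT, or its complement read as ATTGG, in 4 of 7, against 37.4%. TATAAA, with its complement read as TTTATA, was in 0 of 7, against 13.6%. The windows of Col4a1 and Col4a2 overlap, and the GGGCGG in their shared start is counted for both genes. These matches describe the windows only. The 2 windows with most GC boxes were those of Hspg2 with 5 and Lama5 with 4, and their 250 upstream bases are printed with the GC boxes in capitals. They are chr2:180225860-180226109 on the minus strand for Lama5 and chr4:137468553-137468802 on the plus strand for Hspg2.
Lama5: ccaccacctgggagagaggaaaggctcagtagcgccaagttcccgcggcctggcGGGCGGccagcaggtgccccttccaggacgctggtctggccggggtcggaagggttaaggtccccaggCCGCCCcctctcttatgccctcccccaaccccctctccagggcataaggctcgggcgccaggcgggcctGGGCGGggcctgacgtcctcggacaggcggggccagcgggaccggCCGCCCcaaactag
Hspg2: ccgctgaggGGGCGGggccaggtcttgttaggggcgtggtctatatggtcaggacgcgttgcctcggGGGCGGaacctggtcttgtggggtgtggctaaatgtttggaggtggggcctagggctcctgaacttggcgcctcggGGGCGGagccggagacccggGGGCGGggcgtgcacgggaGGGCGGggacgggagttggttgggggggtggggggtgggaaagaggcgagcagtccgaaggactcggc

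To compare levels between genes, reads were divided by the length of all annotated exons. In the 12 control mice Col4a1 was the most abundant, with 1262 ± 388 normalized reads per kb (SD, n = 12), followed by Col4a2 with 974 ± 307. Among the laminin chains Lamb2 had 588 ± 79.9, Lamc1 353 ± 47.0, Lama5 193 ± 35.1, Lama4 116 ± 22.0 and Lamb1 45.1 ± 16.9 reads per kb. Hspg2 had 454 ± 121, Nid1 171 ± 39.95 and Nid2 101 ± 16.2. Of the 9 pairs of neighbours in this order, 7 differed within mice (exact sign-flip permutation test of the log2 ratio, two-sided, adjusted over 9 pairs). Lama5 and Nid1 (adjusted exact p = 0.114) and Lama4 and Nid2 (adjusted exact p = 0.0615) did not pass. The order was taken from the same 12 mice, so the neighbours were not set in advance. The place of Lama4 depended on the length used: its exons span 12068 bases in all but 6046 in the longest transcript. Per kb of the longest transcript Lama4 had 232 ± 44.0 reads, above Nid1 (195) and Lama5 (193). By that length Lamb1 had 77.3 ± 28.9 and stayed lowest.

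**Figure D1:**
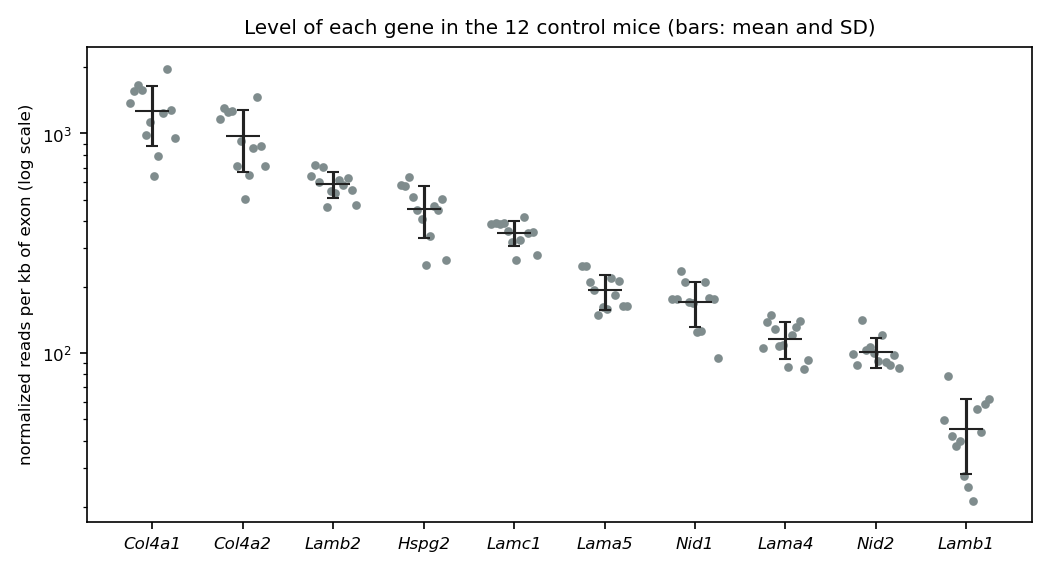
Normalized reads per kb of exon for each gene, on a log scale, in the 12 control mice (points) with the mean and SD (bars). Col4a1 and Col4a2 lie highest and Lamb1 lowest, at 45.1 reads per kb.

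The first comparison asked whether the level of these transcripts differs when endothelial Bmal1 is deleted. None of the 10 passed the test across all genes (edgeR quasi-likelihood test with time point in the model, Benjamini-Hochberg adjusted p under 0.05), a call made for 0.271% of all genes. At an unadjusted p under 0.05 there were 4, Col4a1, Col4a2, Lama5 and Nid2, each with a higher value in mutants, against 6.95% of all genes (3.78% higher and 3.18% lower). The median log2 fold change of the 10 genes was 0.11, beside 0.0033 over all genes. Of 14 endothelial markers 3 were higher in mutants at an unadjusted p under 0.05 (list median 0.083). By the same rule 3 of 9 oligodendrocyte markers were lower and 1 higher (median -0.46). Lower too were 3 of 6 red cell (-0.38) and 2 of 10 astrocyte markers (-0.20). No marker of the other cell types had such a value, and no marker passed after adjustment.

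Col4a1 encodes the collagen IV chain present in 2 copies per heterotrimer. Control reads per mouse were 10233 and 11646 (ZT2), 12346 and 11806 (ZT6), 7375 and 8382 (ZT10), 4803 and 5870 (ZT14), 9224 and 14732 (ZT18) and 9505 and 7145 (ZT22). Mutant reads were 9332 with 12160 (ZT2), 8416 with 18962 (ZT6), 11195 with 10886 (ZT10), 13233 with 11139 (ZT14), 15670 with 13585 (ZT18) and 10395 with 11031 (ZT22). Both mutants lay above both controls at ZT10, ZT14 and ZT22, and the groups overlapped at the other times. Separations of this kind were not counted over all genes, so here and for the genes below they describe the values only. The mean was 2.28-fold that of controls at ZT14 and 0.982-fold at ZT2. Over all times the log2 fold change was 0.41 ± 0.11 (SE, edgeR adjusted p = 0.136, unadjusted 0.000830). DESeq2, tried as an alternative, gave an adjusted p of 0.0227.

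Col4a2, its partner chain, had control reads of 7680 with 8649 (ZT2), 8265 with 8403 (ZT6), 4723 with 6144 (ZT10), 3343 with 4293 (ZT14), 5677 with 9683 (ZT18) and 5811 with 4705 (ZT22). The mutant reads were 6028 with 8671 (ZT2), 5377 with 12893 (ZT6), 8004 with 7721 (ZT10), 9125 with 7741 (ZT14), 10364 with 9186 (ZT18) and 6779 with 7569 (ZT22). The same 3 times, ZT10, ZT14 and ZT22, had both mutants above both controls, with a ratio of means of 2.21 at ZT14. The log2 fold change was 0.40 ± 0.12 (SE, edgeR adjusted p = 0.243). Without mutant ZT6 replicate 1 it was 0.47 for Col4a1 and 0.48 for Col4a2 (edgeR adjusted p = 0.0118 and 0.0231). Fits without 1 library called 0.162 to 0.442% of all genes. With every gene that had a read it was 0.41 and 0.40 (edgeR adjusted p = 2.15e-06 and 1.18e-05), in a fit that called 0.56% of all genes. Without the ZT14 libraries the log2 fold change was 0.27 for Col4a1 and 0.28 for Col4a2, and from the ZT6 and ZT18 libraries alone it was 0.26 and 0.27, with edgeR unadjusted p of 0.128 and 0.149. At ZT14, number series and genotype cannot be told apart, since both mutant libraries belong to the first series, which holds no control of that time. Summed endothelial markers at ZT14 were 109631 to 115939 reads in controls and 126816 to 127512 in mutants. Microglial sums (12953 to 15846 against 17563 to 17569) and choroid sums (10750 to 13115 against 13247 to 19299) were also higher in the ZT14 mutants, and astrocyte sums (14803 to 18161 against 11107 to 11671) and neuronal sums (578 to 699 against 513 to 543) were lower. With the markers of other brain cells as a covariate, a fit added after seeing the data, neither collagen gene passed by edgeR, as without it. That fit called 0.232% of all genes. Over 14 alternatives that include it, the log2 fold change ranged from 0.262 to 0.488 for Col4a1 and from 0.268 to 0.501 for Col4a2. The part of the marker differences at ZT14 itself was not tested.

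**Figure D2:**
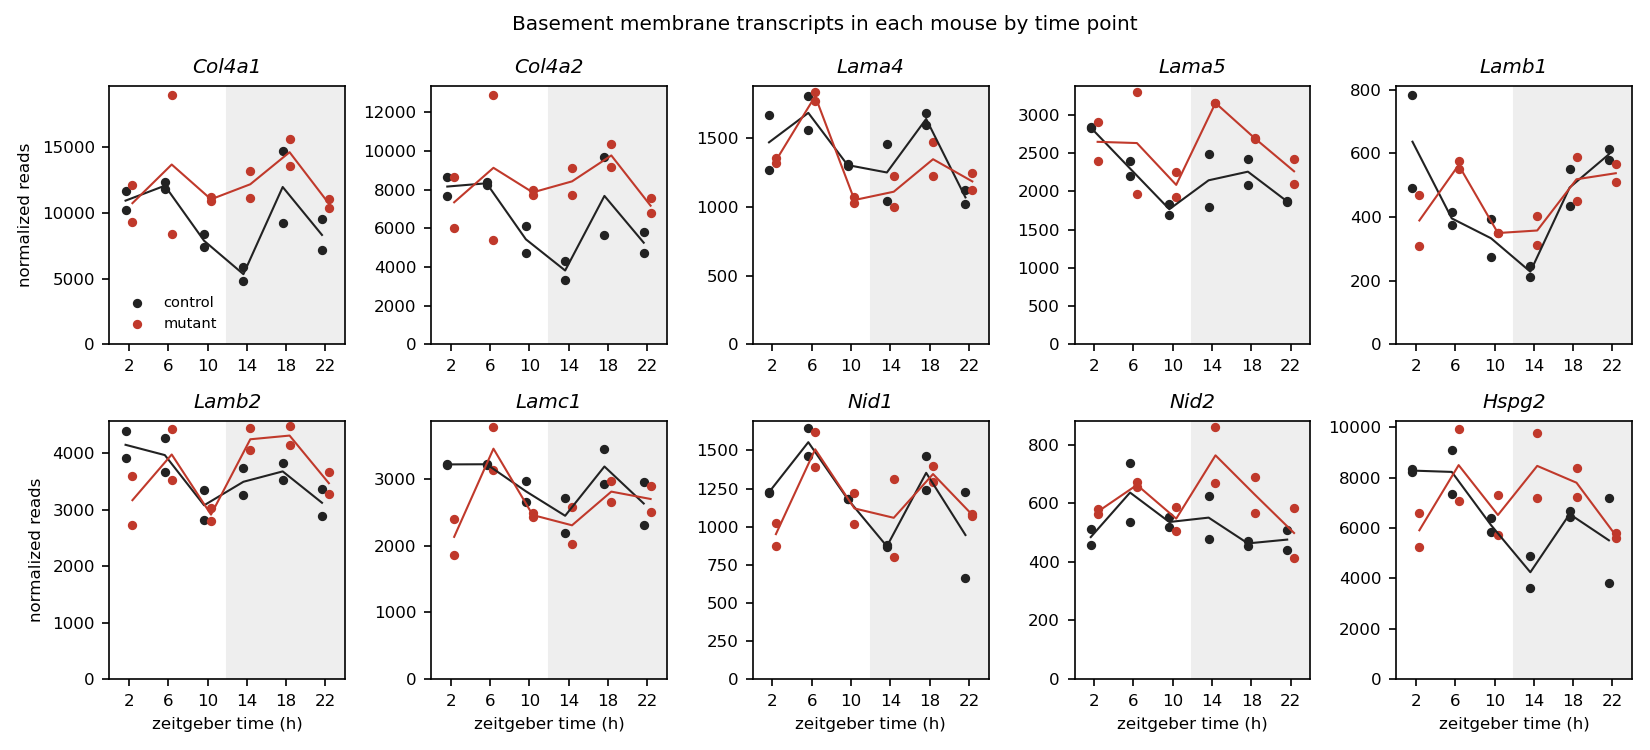
Normalized reads of each gene against zeitgeber time in hours, with 1 point per mouse (black, control; red, mutant), lines through the means of 2 mice and the dark phase shaded. At ZT14 both mutant values of Col4a1, Col4a2, Lama5, Lamb1, Lamb2, Nid2 and Hspg2 lie above both control values. Such separations were not counted over all genes, and at ZT14 number series and genotype cannot be told apart.

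Lama5 encodes the laminin alpha5 chain. Its reads ranged from 1693 to 2845 in controls (median 2145.5) and from 1921 to 3300 in mutants (median 2556.5). The overall ranges overlapped, but at ZT10, ZT14, ZT18 and ZT22 both mutants lay above both controls, for example 3152 and 3164 against 1801 and 2491 at ZT14. The log2 fold change was 0.23 ± 0.077 (SE, edgeR adjusted p = 0.362). Lama4, the other endothelial alpha chain, had 1018 to 1807 reads in controls (median 1386) and 996 to 1838 in mutants (median 1236.5), with a log2 fold change of -0.11 ± 0.077 (edgeR adjusted p = 0.847).

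For the beta chains the medians of the genotypes lay close together and the ratio of means varied between time points, and the gamma chain had a lower median in mutants; none passed the test. Lamb2 had a median of 3597.5 reads in controls and 3629.5 in mutants, and both mutants lay below both controls at ZT2 (ratio of means 0.764) and above them at ZT14 (1.22) and ZT18 (1.17). Lamb1 had medians of 425 and 458.5, with a ratio of means from 0.611 at ZT2 to 1.57 at ZT14. Lamc1, the gamma chain of both endothelial laminins, had a median of 2963 in controls and 2547 in mutants (log2 fold change -0.15 ± 0.079 SE, edgeR adjusted p = 0.742, unadjusted 0.0584). At ZT2 it had 3212 and 3226 reads in controls and 1867 and 2398 in mutants. At ZT10 it had 2973 and 2659 in controls and 2437 and 2483 in mutants, with no overlap at either time. At both these times i5 index and genotype cannot be told apart, and the groups overlapped at the other times. The Lamc1 log2 fold change ranged from -0.19 to -0.11 with single libraries left out. Over the other alternatives it ranged from -0.23 to -0.0086.

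Nid1 had a log2 fold change of -0.0068 ± 0.091 (SE, edgeR adjusted p = 0.995), a value whose sign changed with the scaling to deposited totals (0.0034). Nid2 had 442 to 736 reads in controls (median 511) and 414 to 859 in mutants (median 585.5), with a log2 fold change of 0.22 ± 0.087 (edgeR adjusted p = 0.559). Nid2 shares 437 exon bases with Rtraf, Nid1 shares 143 with Gm48682 and Col4a2 shares 43 with Gm15419, besides the 22 of the collagen pair, all on opposite strands. The libraries were strand-specific, but the strand setting of the counting is not given in the sources used here.

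For Hspg2 (perlecan) the sign of the genotype difference in means varied between time points, which did not pass a test (edgeR adjusted p = 0.830 for genotype by time point). Control reads were 8351 with 8218 (ZT2), 9093 with 7371 (ZT6), 6392 with 5841 (ZT10), 3608 with 4882 (ZT14), 6666 with 6447 (ZT18) and 7209 with 3817 (ZT22). Mutant reads were 5236 with 6590 (ZT2), 7059 with 9945 (ZT6), 7296 with 5744 (ZT10), 9764 with 7178 (ZT14), 8372 with 7234 (ZT18) and 5816 with 5598 (ZT22). Both mutants were below both controls at ZT2 (ratio of means 0.714) and above them at ZT14 (2.00) and ZT18 (1.190). The log2 fold change over all times was 0.15 ± 0.11 (SE, edgeR adjusted p = 0.857). It lay between 0.082 without control ZT14 replicate 1 and 0.22 without control ZT22 replicate 1, and between 0.0069 without the ZT14 libraries and 0.32 with the i5 index in the model.

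**Figure D3:**
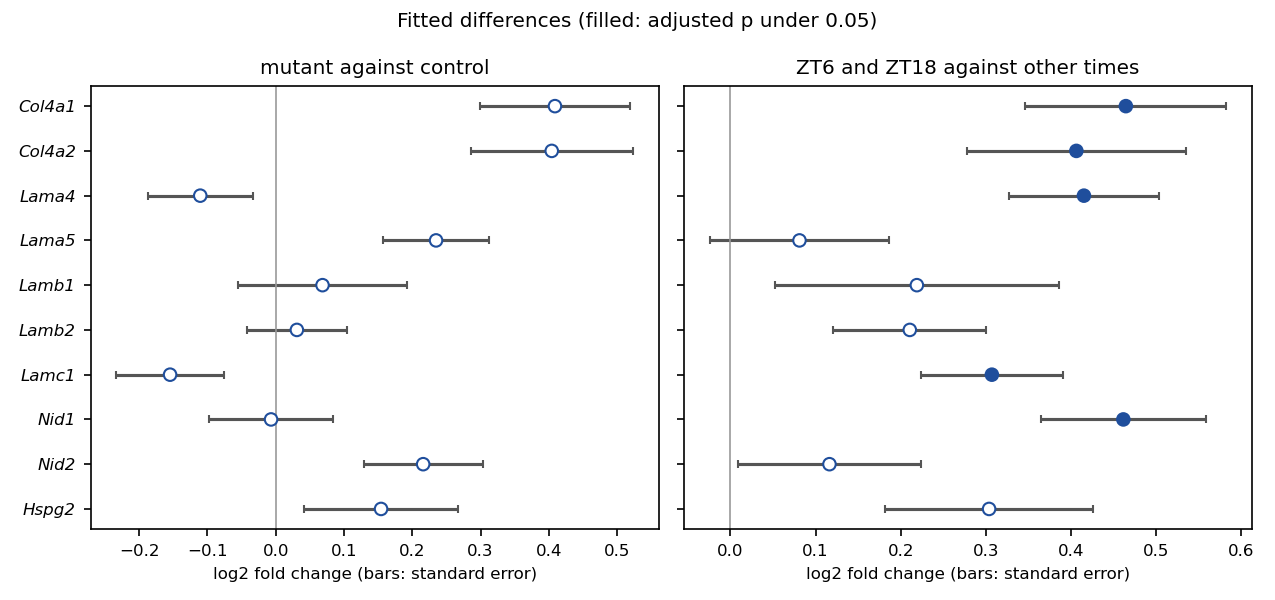
Fitted log2 fold change with its standard error for each gene, mutant against control (left) and ZT6 and ZT18 against the other times (right); filled points have an edgeR adjusted p under 0.05. No gene is filled on the left, and Col4a1, Col4a2, Lama4, Lamc1 and Nid1 are filled on the right.

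Ratios of related chains within a mouse do not depend on library scaling, and 4 were compared between genotypes (exact permutation of genotype within time points, two-sided, 46656 arrangements, adjusted over the 4). The log2 ratio of Lama4 to Lama5 averaged -0.65 ± 0.24 in controls (SD, n = 12) and -0.99 ± 0.38 in mutants, a difference of -0.34 or 0.792-fold (exact p = 0.00720, adjusted 0.0288). The mean ratio was lower in mutants at 6 of 6 time points, with differences of -0.018 at ZT2, -0.044 at ZT6, -0.55 at ZT10, -0.73 at ZT14, -0.55 at ZT18 and -0.12 at ZT22. The individual values overlapped, from -1.16 to -0.38 in controls and from -1.67 to -0.098 in mutants. Without the ZT14 libraries the difference was -0.26 (adjusted exact p = 0.159). Without the first number series it was -0.30 (adjusted exact p = 0.0700), and without ZT6 and ZT18 it was -0.36 (adjusted exact p = 0.0802). Swapping genotypes only within pairs of the same replicate number, as a block, gave an adjusted exact p of 0.0508. The call was also lost without any 1 of 5 libraries (control ZT2 replicate 2, control ZT6 replicate 1, mutant ZT2 replicate 2, mutant ZT6 replicate 2 and mutant ZT22 replicate 1), and the difference ranged from -0.40 to -0.27 with single libraries left out.

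The log2 ratio of Col4a1 to Col4a2 was 0.55 ± 0.10 in controls and 0.56 ± 0.056 in mutants (SD; difference 0.0073, adjusted exact p = 0.814). That of Lamb1 to Lamb2 was -3.08 ± 0.57 and -3.04 ± 0.34 (adjusted exact p = 0.814). That of Nid1 to Nid2 was 1.15 ± 0.35 and 0.94 ± 0.33 (difference -0.22, adjusted exact p = 0.115), lower in mutants at 5 of 6 time points. Without control ZT22 replicate 2, the library with the most choroid plexus marker reads and the lowest Nid1 (662), the Nid1 to Nid2 difference was -0.28 (adjusted exact p = 0.0225).

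**Figure D4:**
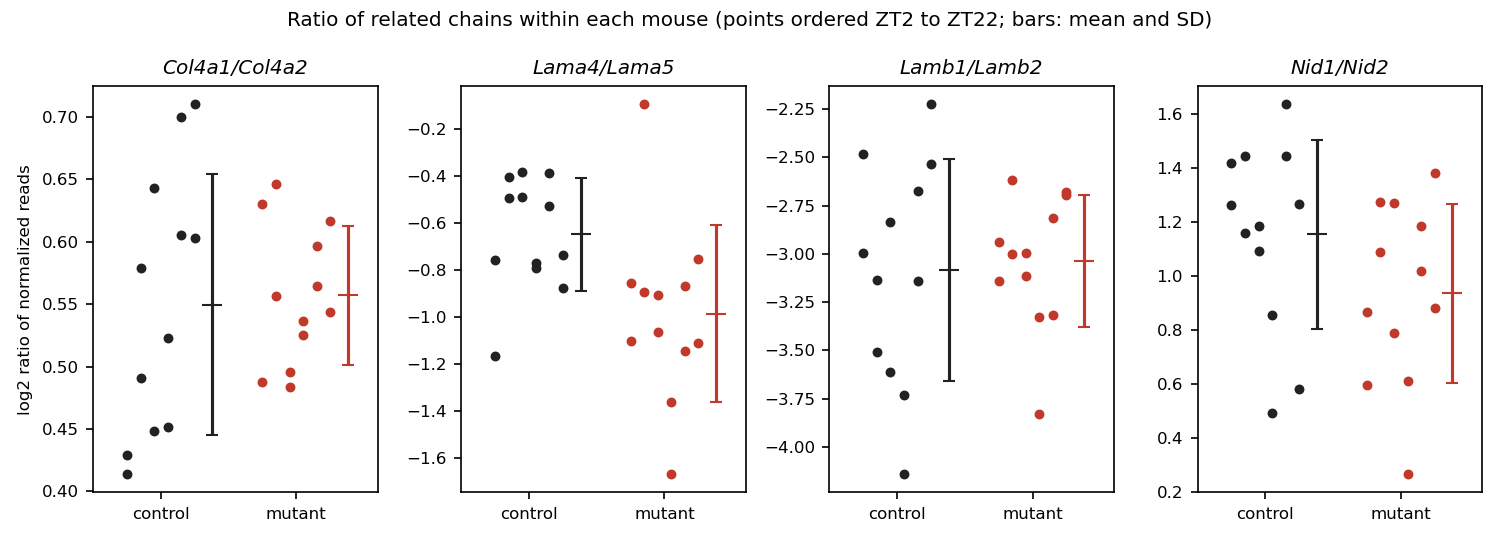
Log2 ratio of normalized reads of 2 related chains in each mouse, controls in black and mutants in red, ordered from ZT2 to ZT22 within a genotype, with the mean and SD. The Lama4 to Lama5 ratio averages -0.65 in controls and -0.99 in mutants; the vertical axes differ in range.

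Col4a1 and Col4a2 moved together from mouse to mouse. Because the libraries of ZT6 and ZT18 stood apart, correlations of log2 levels were taken within them and within the rest, for 4 pairs and 8 relations. Over the 16 other libraries r was 0.979 and Spearman's rho 0.974 (permutation p = 1e-05 for each, adjusted 8e-05), and r was 0.966 without the 2 farthest libraries. Over the 8 libraries of ZT6 and ZT18 r was 0.992 and rho 0.976 (permutation p = 5e-05 and 0.00028, adjusted 0.0002 and 0.00112), and r was 0.979 without the 2 farthest. In the other 3 pairs r lay between -0.22 and 0.59, and none passed.

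Across all 24 libraries, which were resampled to like totals and differ in their markers of other cell types, Col4a2 was the gene most like Col4a1 (r = 0.982). Among the 7702 genes outside the 10 with a mean of 100 or more reads, the most alike were Cx3cl1 (r = 0.877), Ly6e (0.876), Lama3 (0.866), Tgfbr2 (0.866) and Rflnb (0.857). Of the other members, Hspg2 reached 0.757, Lama5 0.612 and Lamc1 0.128.

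The second question was whether the transcripts follow a 24-h rhythm, tested with meta2d (JTK_CYCLE and Lomb-Scargle combined) in each genotype. No member reached the study's threshold of q under 0.6, met by 0.31% of all genes in controls and 0.0387% in mutants. At an unadjusted p under 0.05 there was 1 in controls, Lamb1, against 2.43% of all genes, and 0 in mutants, against 2.27%.

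Lamb1, the laminin beta1 chain, had control reads of 490 with 783 (ZT2), 417 with 374 (ZT6), 393 with 273 (ZT10), 245 with 211 (ZT14), 552 with 433 (ZT18) and 579 with 615 (ZT22). The lowest pair was at ZT14 and did not overlap any other time. The meta2d p was 0.00870 (n = 12, q = 1). The fitted peak was at ZT23.8 and the relative amplitude 43.5%. Its mutant reads were 310 with 468 (ZT2), 575 with 551 (ZT6), 349 with 350 (ZT10), 403 with 312 (ZT14), 588 with 449 (ZT18) and 565 with 510 (ZT22). The relative amplitude in mutants was 14.2% (n = 12, meta2d p = 0.999). Both mutants were below both controls at ZT2 and ZT22 and above them at ZT6 and ZT14.

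The fitted relative amplitude in controls was 25.6% for Hspg2, 24.0% for Col4a2 and 20.8% for Col4a1, with peaks at ZT3.56, ZT2.59 and ZT1.80, and in mutants it was 13.6, 7.03 and 5.86%. None of these passed in either genotype (meta2d p from 0.0925 to 0.803 in controls). An edgeR cosinor without the ZT6 and ZT18 libraries, added after seeing the data, gave unadjusted p-values in controls of 0.00377 for Col4a1, 0.00229 for Col4a2 and 0.0191 for Hspg2, and of 0.0396 for Hspg2 in mutants, with edgeR adjusted p from 0.288 to 0.834. In controls that fit called 4 members at an unadjusted p under 0.05, against 5.72% of all genes, and 3 at q under 0.6, against 2.04%. In mutants it called 1 and 0, against 5.83% and 1.94%. With every library the cosinor called 1 member in controls, Lamb1, by either rule, against 4.43% and 0.858% of all genes, and 0 in mutants by either rule, against 4.16% and 0.194%. Single libraries moved these values. Without control ZT18 replicate 2 the unadjusted cosinor value in controls went from 0.207 to 0.00754 for Col4a1, from 0.138 to 0.00187 for Col4a2 and from 0.0570 to 0.0417 for Hspg2. For Hspg2 it was 0.0252 without control ZT18 replicate 1 and 0.00528 without control ZT22 replicate 2. In mutants it went from 0.759 to 0.0365 for Col4a1 and from 0.682 to 0.0468 for Col4a2 without mutant ZT6 replicate 2, and from 0.201 to 0.0446 for Hspg2 without mutant ZT10 replicate 2. The difference in rhythm between genotypes was tested directly: by edgeR, 0 of 10 members and 0% of all genes passed at an adjusted p under 0.05, and at an unadjusted p under 0.05 there was 1 member, Hspg2 (0.0305), against 4.26% of all genes. A test of whether the genotype difference varied among the 6 time points was added after seeing the data. It gave 2 members at an unadjusted edgeR p under 0.05, Hspg2 (0.0120) and Lamb1 (0.0214), against 5.22% of all genes. At an adjusted p under 0.05 it gave 0, against 0.0129%. With the replicate block the unadjusted count was 4, adding Col4a1 (0.0481) and Col4a2 (0.0373), against 5.39% of all genes. Deposited totals also gave 4, with Col4a1 at 0.0246 and Col4a2 at 0.0346, against 5.56%.

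The ZT6 and ZT18 libraries were also set against the other times. Here 5 of 10 members were higher at ZT6 and ZT18 (edgeR adjusted p under 0.05), Col4a1, Col4a2, Lama4, Lamc1 and Nid1, and 0 were lower, where 16.7% of all genes were called, 5.85% higher and 10.9% lower. Nid1 had 1241 to 1645 reads in the 8 libraries and 662 to 1313 in the other 16, with a log2 fold change of 0.46 ± 0.097 (SE, edgeR adjusted p = 0.000670). Lama4 had 1223 to 1838 and 996 to 1671 (0.42 ± 0.088, edgeR adjusted p = 0.000730), and Lamc1 2659 to 3777 and 1867 to 3226 (0.31 ± 0.084, edgeR adjusted p = 0.00826). The log2 fold change was 0.46 ± 0.12 for Col4a1 (edgeR adjusted p = 0.00447) and 0.41 ± 0.13 for Col4a2 (0.0241). With single libraries left out 4 to 6 members passed: Col4a2 did not pass by edgeR without control ZT18 replicate 2 (adjusted p = 0.0732) or mutant ZT6 replicate 2 (0.0837), and Hspg2 passed by edgeR without control ZT2 replicate 2 (adjusted p = 0.0492) or mutant ZT14 replicate 1 (0.0343). The ranges of all 5 genes overlapped between the sets of libraries.

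Markers of mural and endothelial cells were higher in the same libraries. Of 11 pericyte markers 7 were higher and 0 lower, with summed levels of 13996 to 23900 reads at ZT6 and ZT18 and 10278 to 18916 at the other times. Of 8 smooth muscle markers 6 were higher, with sums of 3310 to 7626 and 787 to 4378, and of 14 endothelial markers 10 were higher, with sums of 135949 to 143297 and 90454 to 127512. All 10 microglial markers were lower. With pericyte and smooth muscle markers as a covariate 0 of 10 members passed as higher by edgeR, and likewise with endothelial markers or with the i5 index. Calls fell over all genes too, from 5.85% higher to 0.432%, 0.865% and 1.23% in these 3 fits. The fold changes of the 5 genes did not move alike. With pericyte and smooth muscle markers the log2 fold change was 0.46 for Lama4 (edgeR adjusted p = 0.0700), against 0.42 without the covariate, and 0.26 for Col4a1, 0.25 for Col4a2, 0.23 for Nid1 and 0.14 for Lamc1. With endothelial markers it was 0.42 for Nid1, 0.33 for Lama4 and 0.33 for Lamc1, and 0.27 for Col4a1 and 0.11 for Col4a2. With the i5 index the 5 values lay between 0.14 for Col4a2 and 0.28 for Lama4. In mutant mice alone 3 members passed as higher, Lama4, Lamc1 and Nid1, against 2.59% of all genes. In control mice alone 0 passed on 12 libraries, against 1.35% of all genes, with log2 fold changes of 0.56 for Col4a1, 0.49 for Col4a2, 0.45 for Nid1, 0.37 for Lama4 and 0.19 for Lamc1. The number series and the pair ZT6 and ZT18 cannot be told apart.

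Other genes of the basement membrane were compared between genotypes in the same fit. This list and the lists below were chosen with earlier results of these data known. Their counts, set beside the share of all genes, are therefore no test of the lists. Of 35 other components, 33 were tested and 2 were higher in mutants at an adjusted p under 0.05, against 0.155% of all genes; at an unadjusted p under 0.05 there were 6 higher and 4 lower, against 3.78% and 3.18% of all genes. Lamc3, the laminin gamma3 chain, averaged 499.5 reads in controls and 737 in mutants (log2 fold change 0.52 ± 0.11 SE, edgeR adjusted p = 0.0164). Ecm1, an extracellular matrix protein, averaged 386 and 574 (0.55 ± 0.12, edgeR adjusted p = 0.0362). Lama3, also among the genes most like Col4a1, had a log2 fold change of 0.56 (edgeR adjusted p = 0.0784). The median of the 33 was 0.00084. The calls of this list and of the lists below are given for the main fit only, in which 42 of all genes passed. With the i5 index 7 of all genes passed, 3 of them higher. Without the ZT14 libraries 8 passed, and without the first number series 9.

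Among 27 tested proteases and inhibitors 2 were higher in mutants, and at an unadjusted p under 0.05 there were 6 higher and 0 lower, against 0.155% of all genes higher after adjustment and 3.78% higher before it. Plat, tissue plasminogen activator, averaged 1294 reads in controls and 2292 in mutants (log2 fold change 0.83 ± 0.13 SE, edgeR adjusted p = 0.000759). Mmp15, a membrane-type matrix metalloproteinase, averaged 585 and 1076 (1.09 ± 0.20, edgeR adjusted p = 0.00599). Among 22 genes of TGF-beta signalling 5 were higher and 1 lower at an unadjusted p under 0.05, against 3.78% and 3.18% of all genes. After adjustment 1 was lower, against 0.116% of all genes. It was the ligand Tgfb2, with 1226 and 884 reads (-0.50 ± 0.098, edgeR adjusted p = 0.0115). None of 23 receptors for laminin and collagen passed by edgeR, with 1 at an unadjusted p under 0.05, Sdc4 (log2 fold change -0.26). None of 28 tested genes of collagen folding, export and crosslinking passed by edgeR either, with 2 at an unadjusted p under 0.05, P4ha1 (0.32) and Plod3 (0.25). Over all genes 6.95% had an unadjusted p under 0.05. The counts of the receptor list and of the collagen folding, export and crosslinking list are therefore read as near or below the background.

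**Figure D5:**
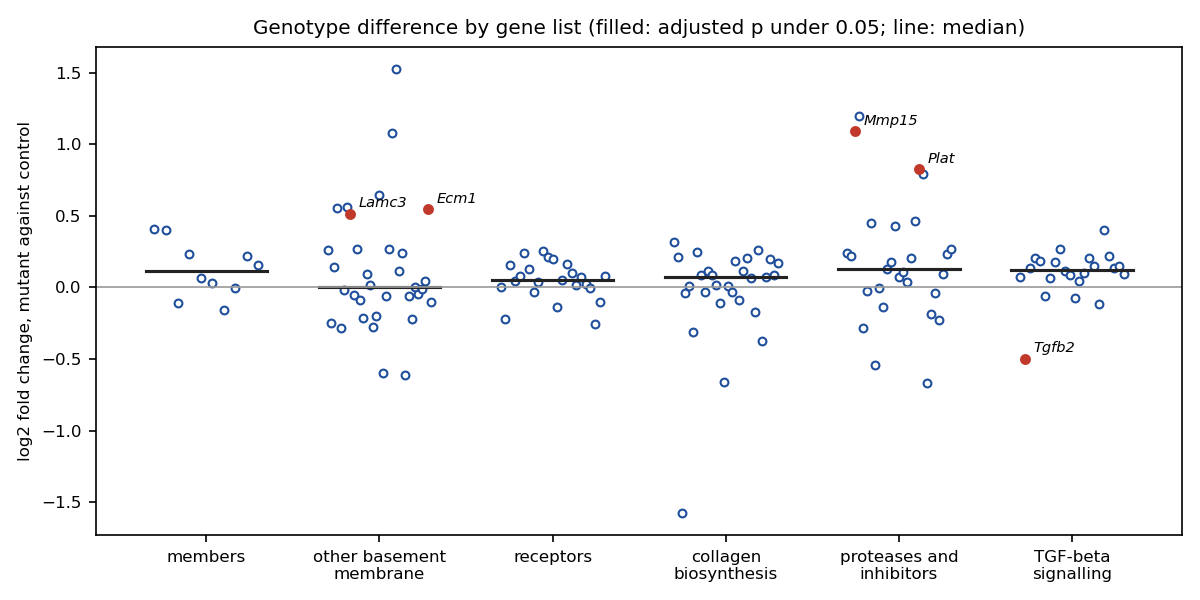
Log2 fold change, mutant against control, of each tested gene in 6 lists, with the list median as a line and genes with an edgeR adjusted p under 0.05 filled. Lamc3, Ecm1, Mmp15 and Plat are filled above 0 and Tgfb2 below 0, and no member is filled.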

How the data were processed

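RNA from CD31-sorted brain endothelial cells of 24 mice was measured. The deposited counts are whole reads per gene that the authors aligned to GRCm38 with STAR 2.5.3a, merged with SAMtools 1.3.1 and normalized by PORT, which resamples reads to like totals, so original depth is not kept. From these, edgeR 4.0.16 (R 4.3.3, TMM factors, quasi-likelihood test, Benjamini-Hochberg over 15493 genes) gave the differences, and meta2d, rewritten in R, the rhythms. The statistics were run on simulated counts with known changes. Their spread was smaller, and their changes larger, than those of the members, so this run checks the code and not the power here. The biological coefficient of variation was 42.4%, and 2 mice per group limit precision. DESeq2 1.42.0, other scalings, filters, covariates and left-out libraries were the alternatives. Mice were separate animals.

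Members, gene lists and tests were chosen with earlier results of these data known. Named genes were all members, list genes with an adjusted p under 0.05 between genotypes (otherwise up to 3 with the smallest unadjusted p under 0.05, not all printed), the 5 most like Col4a1, and Arntl. For ZT6 and ZT18 only counts at an edgeR adjusted p under 0.05 are given for the other lists. Over all genes 5.85% were higher and 10.9% lower. In the lists 6 of 33 other components, 7 of 23 receptors, 5 of 28 biosynthesis, 3 of 27 turnover and 9 of 22 TGF-beta genes were higher, and 1, 7, 1, 6 and 3 lower. Fibroblast markers were higher in 0 and lower in 1 of 9, and 9 of 10 astrocyte, 7 of 9 oligodendrocyte, 6 of 7 neuronal, 5 of 6 red cell and 5 of 5 choroid markers were lower.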

Additional observations from a re-analysis of the deposited data

Results flagged for a closer look

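For Hspg2 and Lamb1, edgeR tests of a genotype difference that varied with time had an unadjusted p under 0.05. Such values were met by 4.26% of all genes for the difference in rhythm and by 5.22% across time points. Col4a1 and Col4a2 also met them across time points with deposited totals or with the replicate block. For Hspg2 the edgeR test of a difference in 24-h rhythm over 24 mice gave an unadjusted value of 0.0305 (adjusted p = 0.9998), and that of a genotype difference varying across time points gave 0.0120 (adjusted p = 0.830). For Lamb1 the latter gave 0.0214 by edgeR (adjusted p = 0.932). The Hspg2 rhythm difference had an unadjusted value above 0.05 without any 1 of 5 libraries: 0.0837 without control ZT14 replicate 1, 0.0519 and 0.0525 without control ZT2 replicate 1 or 2, 0.0854 without mutant ZT14 replicate 1 and 0.0719 without mutant ZT2 replicate 1. None of the 3 passed adjustment over all genes.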

How the results depend on the processing

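Members called between genotypes at an adjusted p under 0.05 numbered 0, but 1 with DESeq2 and 2 with every gene that had a read, and 0 to 2 with single libraries left out (2 without mutant ZT6 replicate 1), against 0.271%, 0.639%, 0.56% and 0.162 to 0.442% of all genes. At an unadjusted p under 0.05 they numbered 4, and from 0 with the ZT6 and ZT18 libraries alone to 6 with every gene that had a read, against 6.95%, 6.41% and 5.52% of all genes. The higher calls at ZT6 and ZT18 went from 5 to 0 in controls alone, with endothelial markers, with pericyte and smooth muscle markers or with the i5 index, and to 3 in mutants alone, against 5.85%, 1.35%, 0.865%, 0.432%, 1.23% and 2.59% of all genes. Several log2 fold changes stayed about as large where the call was lost: Col4a1 0.56 and Nid1 0.45 in controls alone, Lama4 0.46 with pericyte and smooth muscle markers, and Lamc1 0.33 and Nid1 0.42 with endothelial markers.

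Rhythms with single libraries left out were fitted with the edgeR cosinor and not with meta2d, so their values are to be read against the cosinor with every library and not against meta2d. In controls meta2d gave 0 members at q under 0.6, the cosinor 1, and the cosinor with 1 library left out 0 to 3; at an unadjusted p under 0.05 these were 1, 1 and 1 to 4. The cosinor without ZT6 and ZT18 gave 3 and 4. Over all genes the cosinor in controls gave 0.858% at q under 0.6 and 4.43% at an unadjusted p under 0.05, 2.04% and 5.72% without ZT6 and ZT18, and 0.316 to 1.33% and 3.6 to 5.57% with 1 library left out. In mutants the counts at an unadjusted p under 0.05 were 0, 0 and 0 to 2, and 1 without ZT6 and ZT18, against 4.16%, 3.08 to 5.22% and 5.83% of all genes by the cosinor. The Col4a1 rhythm p in controls was 0.803 by meta2d and 0.207 by the cosinor, and 0.00754 without control ZT18 replicate 2. Rhythm differences at an unadjusted p under 0.05 numbered 1, but 3 with every gene that had a read, 2 with the i5 index, 4 with pericyte and smooth muscle markers, and 0 to 3 with single libraries left out, against 4.26%, 6.22%, 6.00%, 5.56% and 3.22 to 5.08% of all genes. Genotype differences by time point numbered 2, and 4 with deposited totals, against 5.22% and 5.56%.

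The Lama4 to Lama5 difference of -0.337 ranged from -0.403 to -0.270 with single libraries left out. Its call was lost without control ZT2 replicate 2, control ZT6 replicate 1, mutant ZT2 replicate 2, mutant ZT22 replicate 1 or mutant ZT6 replicate 2, and at -0.298 without the first number series, -0.257 without ZT14 and -0.356 without ZT6 and ZT18. The Nid1 to Nid2 difference ranged from -0.275 to -0.161 with single libraries left out, passing without control ZT22 replicate 2. That of Col4a1 to Col4a2 ranged from -0.00898 to 0.0235, with -0.00153 without the first series and -1.33e-05 without ZT14. That of Lamb1 to Lamb2 ranged from -0.0191 to 0.110, with -0.0678, -0.0168 and -0.0203 without the first series, ZT14, and ZT6 and ZT18.

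Genotype log2 fold changes reversed for Lamb1 (-0.034, -0.025 and -0.066 without the same 3 sets), Lamb2 (-0.00053 without ZT14, -0.032 without ZT6 and ZT18) and Nid1 (0.0034 with deposited totals, 0.089 with the i5 index, 0.0053 from ZT6 and ZT18 alone, and -0.063 to 0.036 with single libraries left out). Those of ZT6 and ZT18 reversed for Hspg2 (-0.0020, i5 index), for Lama5, Lamb2 and Nid2 with endothelial markers (-0.36, -0.17 and -0.081), and for Lamb1 (-0.013 in controls alone, -0.057 with pericyte and smooth muscle markers). The causes were not tested.

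Replicate numbers did not pair the samples: same-numbered deviations correlated at -0.0050 to 0.15 over 6 time points. With the replicate number as a block, the Lama4 to Lama5 difference of -0.337 had an adjusted exact p of 0.0508, and 4 members had a genotype difference by time point at an unadjusted p under 0.05, against 5.39% of all genes. Other counts of members called kept their values under the block, including the 1 member at q under 0.6 in controls that the cosinor gives with and without it. Depth before resampling is not known.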
